A study of Macaca fascicularis with 20 samples.

Results

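The comparison covered CD27+ CD11b+ (double-positive) and CD27lo CD11b+ (CD11b single-positive) natural killer (NK) cells sorted from the spleen of cynomolgus macaques (Macaca fascicularis). Its members were chosen by sample title, 5 arrays of each subset, and made up 10 of the 20 one-colour arrays of the series. The other arrays held CD27+ CD11blo cells (CD27 single positives, 4 arrays), CD27lo CD11blo cells (double-low cells, 4 arrays) and B cells (2 arrays). Both subsets were taken as NKG2A+ CD8a+ cells within the live CD45+ CD3- CD14- CD20- HLA-DR- gate of thawed, cryopreserved cells, which had not been stimulated, and 50 ng of total RNA from each sort was amplified before labelling. Within each of these subsets, replicate 1 came from a Cambodian male of 4 years, replicate 2 from a Vietnamese male of unstated age, replicate 4 from a Singaporean male of 5 years and replicate 5 from a Singaporean female of 18 years. Replicate 3 was labelled as a Vietnamese male of 12 years in double positives and of 11 years in CD11b single positives. In the CD27 single-positive and double-low groups, replicates 1 and 2 carried the same labels as above, replicate 3 was a Vietnamese male of 10 and 9 years, respectively, and replicate 4 a Singaporean female of 18 years. The 2 B cell arrays, from cells sorted as NKG2A- CD8a- HLA-DR+ CD20+, came from Singaporean females of 5 and 18 years. The labels call the arrays biological replicates and do not say whether a number marks the same animal in different subsets.

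CD27 belongs to the TNF receptor superfamily, binds CD70 and signals through TRAF adaptors to NF-kB. CD11b is the integrin alpha M subunit, which pairs with CD18 and marks myeloid cells and maturing NK cells. In mice, NK cells gain CD11b while they still carry CD27 and lose CD27 at the most mature stage, so the present comparison is of the CD27 step among cells that already carry CD11b.

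A level is given below on the log2 scale, as a processed signal set against its array's 75th percentile, and a difference as double positive minus CD11b single positive on that log2 scale, with limma's standard error. Levels of different genes come from different probes and are not set against each other. Of 58659 probes, 20417 matched 12530 named genes, and 12192 genes passed the filter on dim probes. The 75th percentile of intensity was 180 to 1897 units on the double-positive arrays and 578 to 1308 on the CD11b single-positive arrays. Double-positive replicate 4 was the dimmest, with 67.9% of probes well above background against 85.7% to 91.5% on the other double-positive arrays and 88.0% to 93.9% on the CD11b single-positive arrays. Slide 1 held replicates 1 and 2 of both subsets, slide 2 replicate 3 and slide 3 replicates 4 and 5, so subset and slide were balanced. The identity of the cells was checked with 13 NK genes, of which 12 were measured (NCR1, NCR3, KLRD1, EOMES, TBX21, CD247, TYROBP, GZMB, GZMH, PRF1, NKG7 and CTSW). All 12 were well above background on every array of both subsets. Their summed scaled signal was 139 to 362 in double positives and 101 to 235 in CD11b single positives, against 6.47 to 6.76 in B cells. ITGAM, which encodes CD11b, had no probe matched by name.

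The transcript of CD27, whose protein was sorted on, followed the sort on most arrays. CD27 read 4.25, 3.88, 3.71, 3.75 and 3.66 in double-positive replicates 1 to 5 and 3.16, 2.55, 3.20, 3.83 and 3.12 in CD11b single-positive replicates 1 to 5. Of the 5 CD11b single-positive arrays, 4 lay below every double-positive array, and replicate 4 lay inside their range. Group means were 3.85 ± 0.24 and 3.17 ± 0.45 (SD, n = 5 each), a difference of 0.68 (two-sided exact permutation p = 0.0317 over 252 splits). The limma fit across all genes gave 0.68 ± 0.41 with an adjusted p of 0.783. In sorted bulk RNA, fewer cells with a transcript and less RNA per cell cannot be told apart. Exact permutation p was 0.111 with normexp, with quantile normalization and in the deposited table (differences of 0.54, 0.54 and 0.55), and 0.0857 to 0.114 without both arrays of replicate 1, 2, 3 or 5. Without slide 1 the difference was 0.32 (exact permutation p = 0.4, where 0.1 is the smallest possible).

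The genes given as markers of this step beside CD27 were IRF8, an interferon regulatory factor that controls dendritic cell, B cell and NK cell development, and PLAC8, a small cysteine-rich protein of leukocytes. Both were chosen with earlier results of these arrays known, so their values are a description. IRF8 read 0.84, 2.91, 0.78, 3.97 and 0.77 in double positives and -2.28, -0.69, -0.56, 1.11 and 0.96 in CD11b single positives. The groups overlapped, since CD11b single-positive replicates 4 and 5 lay above double-positive replicates 1, 3 and 5. The IRF8 difference was 2.15 ± 0.67 (limma adjusted p = 0.783), and within slides 1, 2 and 3 it was 3.36, 1.35 and 1.33.

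PLAC8 read 1.49, 0.81, 5.01, 3.27 and 2.78 in double positives and -0.33, -1.52, 0.41, 1.31 and 0.55 in CD11b single positives. Only CD11b single-positive replicate 4 reached into the double-positive range, above double-positive replicate 2. The PLAC8 difference was 2.59 ± 0.71 (limma adjusted p = 0.783), and within the slides it was 2.07, 4.60 and 2.09. In CD11blo cells, CD27 single positives stood above double-low cells by 1.05 ± 0.46 for CD27, 1.79 ± 0.75 for IRF8 and 1.31 ± 0.79 for PLAC8. These differences come from other arrays, which share the fit's estimate of spread, and none passed after adjustment. For IRF8 the 4 CD27 single-positive arrays all lay above the 4 double-low arrays. For CD27, double-low replicate 4 read 4.88, above all 4 CD27 single-positive arrays (3.66 to 4.87). The other double-low arrays read 2.31 to 3.15. For PLAC8 the arrays of these groups overlapped.

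**Figure D1:**
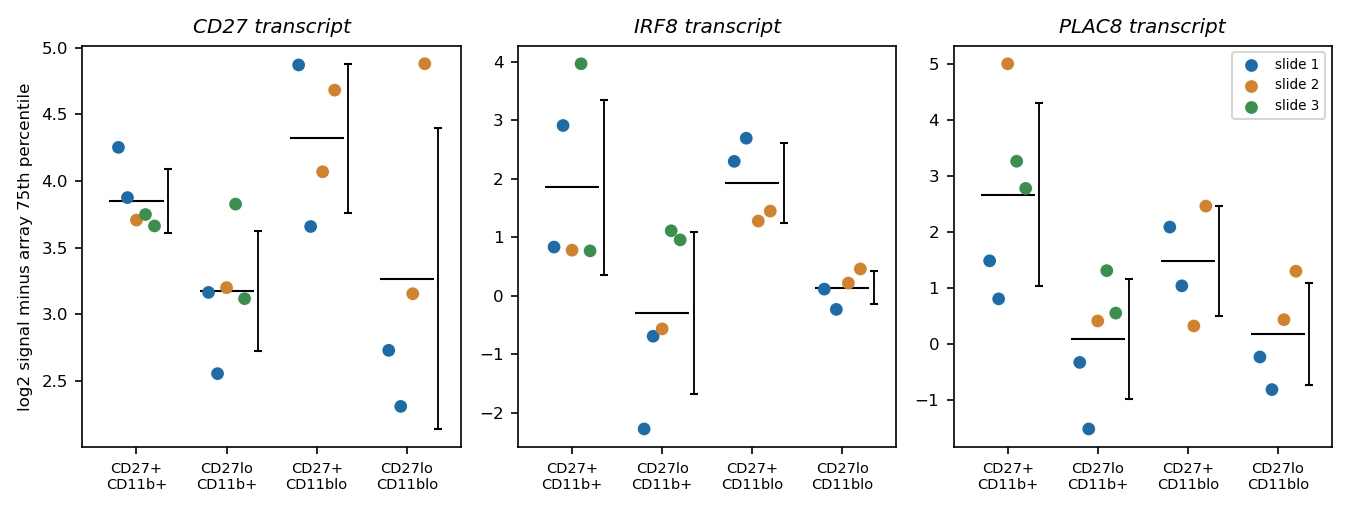
Levels of CD27, IRF8 and PLAC8 (vertical axes, log2 scale, array-scaled) on each of the 18 NK arrays, grouped by subset and coloured by slide; horizontal lines are group means and bars ± 1 SD. In double positives IRF8 ran from 0.77 to 3.97 and PLAC8 from 0.81 to 5.01, overlapping CD11b single positives (-2.28 to 1.11 and -1.52 to 1.31).

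IRF8 and PLAC8 are also high in plasmacytoid dendritic cells and B cells, so lists of those cells were read beside them. The other 8 measured genes of the plasmacytoid list summed to 3.81 to 8.59 in double positives, 3.22 to 6.13 in CD11b single positives and 9.01 to 11.1 in B cells. Its defining genes LILRA4 and IL3RA were not measured. The 10 measured B cell genes summed to 1.77 to 3.08 in double positives and 1.76 to 4.48 in CD11b single positives, against 55.2 to 60.3 in B cells. MS4A1 and CD79A were not measured. IRF8 itself read 1.98 and 2.25 on the B cell arrays and PLAC8 1.45 and 1.23. The part of such cells in the IRF8 and PLAC8 values was not tested.

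Across all genes, none differed between double positives and CD11b single positives at a limma adjusted p under 0.05 (0% of 12192). The smallest adjusted p was 0.783, and 723 genes (5.93%) had an unadjusted p under 0.05, 265 (2.17%) of them higher and 458 (3.76%) lower in double positives. The split of those genes by direction depended on the scaling: 36.7% were higher here, 54.9% after quantile normalization, 71.2% after normexp background correction and 68.5% with each array centred on its median. The median difference of all genes was -0.27, with 32.6% above 0. Other scalings gave medians of -0.12 to -0.06 and 38.8% to 45.2% above 0, so gene groups are read below against the median of all genes. In only 16 genes (0.131%) did all 5 double-positive arrays lie above all 5 CD11b single-positive arrays, and in 21 (0.172%) below.

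The shift of all genes was uneven over signal and slides. With the genes cut by mean signal into 5 equal bins, from the dimmest to the brightest bin, the median difference was -0.53, -0.35, -0.27, -0.18 and -0.08. Within slide 1 the same medians ran from -1.22 in the dimmest bin to -0.002 in the brightest, whereas slides 2 and 3 stayed between -0.06 and 0.14 in every bin. On slide 1 the double-positive arrays were the brighter ones, at 1897 and 1438 units against 622 and 915. On slide 2 the double-positive array read 923 against 1308, and on slide 3 the double-positive arrays read 180 and 1369 against 1251 and 578. The part of array brightness in these differences was not tested.

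**Figure D2:**
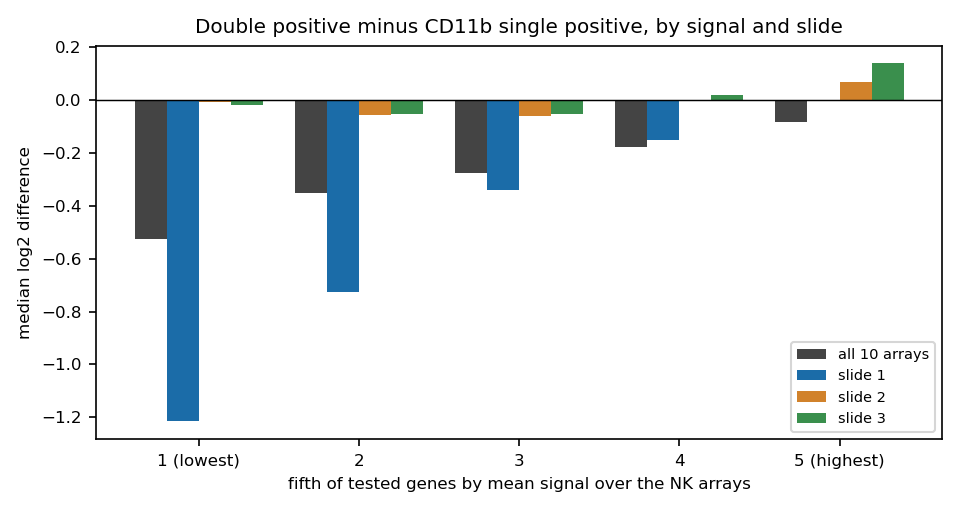
Median log2 difference, double positive minus CD11b single positive (vertical axis), in 5 equal bins of the 12192 genes by mean signal (horizontal axis), over all 10 arrays and within each slide. The negative medians of the dim bins were those of slide 1 (-1.22 in the dimmest bin); slides 2 and 3 gave -0.01 and -0.02 there.

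Gene by gene, the 3 slides did not carry the same differences. Across the 12192 genes, the slide 1 differences had a Pearson correlation of -0.20 with those of slide 2 and of 0.02 with those of slide 3, and slides 2 and 3 had -0.03. With the dimmest array, double-positive replicate 4, left out of slide 3, the correlation of slides 1 and 3 was 0.33. The same step in CD11blo cells shares no array with this comparison, though it shares slides and donor labels. Over all arrays the differences of both steps had a Pearson correlation of 0.50 across genes (Spearman 0.49), and 76.8% of genes had the same sign. By slide, the CD11blo step on slide 1 correlated at 0.67 with the CD11b+ step on slide 1, at -0.19 with that on slide 2 and at 0.13 with that on slide 3. The CD11blo step on slide 2 gave 0.45, -0.16 and 0.08. Without double-positive replicate 4 the slide 3 values were 0.44 and 0.35. These are correlations across genes, which are not independent replicates. Slide 2 held 1 array of each CD11b+ subset, so its differences are those of 2 arrays.

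Genes of the CD27 pathway itself lay on both sides of 0. Of 21 listed genes, 14 were measured, 8 above 0 (32.6% of all genes were) and 6 below, and 11 lay above the median of all genes. Their median was 0.01 against -0.27 for all genes. Slide medians were -0.32, -0.39 and 0.25, beside -0.53, -0.01 and 0.02 for all genes. RELA, an NF-kB subunit, had a difference of 0.99 ± 0.57. SIVA1, which binds the CD27 tail, had 1.17 ± 0.76, with 2.15 on double-positive replicate 4 and -2.42 to -0.89 on the other double-positive arrays. NFKB2, the precursor of the p52 subunit of the alternative NF-kB pathway, had -0.43 ± 0.31. CD70, the ligand, had a difference of 0.00 ± 0.40. None of these passed (limma adjusted p from 0.783 to 0.999).

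Among NF-kB feedback regulators and targets, 8 of 14 measured genes were above 0 (32.6% of all genes were), with a median of 0.40. Slide medians were 1.14, 0.12 and 0.18, and the median was -0.13 without slide 1 and 0.11 without CD11b single-positive replicate 1. TNIP1, which restrains NF-kB with A20, read -0.06, -0.66, -0.36, -0.04 and 0.13 in double positives and -2.26, -0.86, -1.69, -0.53 and -1.72 in CD11b single positives. Only CD11b single-positive replicate 4 entered the double-positive range, and the slides gave 1.20, 1.33 and 1.17. The TNIP1 difference was 1.22 ± 0.43 (limma adjusted p = 0.783), with 1.41 ± 0.49 in CD11blo cells. NFKBIB, an inhibitor of NF-kB, read 0.86, 1.56, 1.82, 2.49 and 0.98 against -2.60, -0.15, 1.03, 0.995 and -0.95. Here replicates 3 and 4 of CD11b single positives lay above the lowest double-positive arrays. Its difference was 1.88 ± 0.68, and 2.51 ± 0.76 in CD11blo cells. BCL2A1, an anti-apoptotic NF-kB target, had 1.98 ± 0.77, with CD11b single-positive replicate 5 at -4.21 and the other 4 between -0.39 and 0.05; double-positive replicate 4 read -1.60.

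Of 38 listed transcription regulators of NK cells, 29 were measured. The differences of 18 were above 0 (32.6% of all genes were), with a median of 0.20. Of the 29, 3 (IRF8, TOX and IRF1) had an unadjusted limma p under 0.05 on the higher side, beside 2.17% of all genes. The list median was -0.04 without slide 1 and 0.0008 without double-positive replicate 1. TOX, which is needed early in NK development, read 1.05, 2.12, -0.22, 3.14 and -0.55 in double positives and -1.002, -0.26, -0.23, 0.88 and -2.67 in CD11b single positives. Within slides its difference was 2.22, 0.01 and 2.19. IRF1, an interferon-induced regulator, had 2.05, 0.01 and 0.36. TBX21, which encodes T-bet and drives terminal NK maturation, had a difference of -0.50 ± 0.52, with 1.65 on double-positive replicate 4 and 2.56 to 3.50 on the other double-positive arrays. LEF1, a WNT pathway factor of immature lymphocytes, had 1.99 ± 1.02.

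Genes linked to NK maturity did not separate the subsets. The list of mature effector genes had 7 of 15 measured members above 0, beside 32.6% of all genes, and a median of -0.17. In it S1PR5, the receptor that guides mature NK cells out of tissues, had -0.69 ± 0.62. The list of immature or CD56bright-like genes had 10 of 13 above 0 and a median of 0.36, but -0.06 without slide 1. That list holds PLAC8 and LEF1.

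Granule genes also gave a mixed picture. Of 14 measured, 9 were above 0 (32.6% of all genes were), with a median of 0.11 and slide medians of 0.89, -0.47 and -0.21. STXBP2, the Munc18-2 protein needed for granule release, read -4.17, -3.66, -3.83, -4.80 and -4.17 in double positives and -2.12, -1.63, -2.54, -4.44 and -3.005 in CD11b single positives. Replicate 4 of CD11b single positives lay inside the double-positive range and the other 4 above it. The STXBP2 difference was -1.38 ± 0.49 (limma adjusted p = 0.783). SRGN, the proteoglycan that packs granzymes, had 0.73 ± 0.41. GZMA, which encodes granzyme A, read -2.99 on double-positive replicate 4 and 2.80 to 5.48 on the other double-positive arrays, against 3.18 to 5.22 in CD11b single positives. Its difference was -1.25 ± 1.22 and turned to 0.17 without that array. In the CD11blo step 13 of the 14 granule genes were above 0 (35.3% of all genes were), with a median of 1.07. No granule gene passed a test of the difference between the steps.

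Cytokine receptors and their kinases had one of the highest medians among the lists. Of 18 measured genes, 13 were above 0 (32.6% of all genes were), with a median of 0.68 and slide medians of 0.89, 0.24 and 0.49. Under the other scalings the median was 0.53 to 0.89. IL4R, the interleukin 4 receptor alpha chain, read 4.13, 3.98, 3.94, 5.63 and 5.34 in double positives and 3.94, 3.95, 3.46, 3.90 and 3.91 in CD11b single positives. Double-positive replicates 4 and 5 were the highest arrays, while double-positive replicate 3 lay among the CD11b single-positive arrays. The IL4R difference was 0.77 ± 0.34 (limma adjusted p = 0.783). JAK1 had 0.81 ± 0.39, JAK2 0.91 ± 0.52 and STAT6, which acts below IL4R, 1.16 ± 0.70. For STAT6, CD11b single-positive replicates 1 and 5 read -0.56 and -1.24, and the other 3 lay between 2.07 and 2.54, beside double-positive values of 1.68 to 2.40.

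Immediate early genes are transcribed within minutes of stimulation and respond to receptor signals, to stress and to cell handling. Of 41 listed genes, 36 were measured and 31 had a difference above 0, beside 32.6% of all genes. Their median was 0.68 (0.59 to 0.89 under the other scalings). Unadjusted p was under 0.05 for 5 of them, all in this direction (2.17% of all genes were), and none passed after adjustment. In CD11blo cells 33 were above 0 (35.3% of all genes were, and 64.7% below), with a median of 1.14, and 31 were above 0 in both steps. The slides disagreed, with medians of 1.73, -0.18 and 0.73 and with 33, 16 and 26 of the 36 genes above 0. Of the 36 genes, 25 were in the brightest bin of all genes, where the median difference of all genes was -0.08. In that bin 45.35% of all genes were above 0, and 49% in the CD11blo step.

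NR4A2, an orphan nuclear receptor induced by antigen receptor signals, read 1.99, 3.46, 0.27, 1.01 and 2.92 in double positives and -1.30, 1.73, -0.08, 1.82 and -1.68 in CD11b single positives. The groups overlapped through replicates 2 and 4 of CD11b single positives. The NR4A2 difference was 1.83 ± 0.73 (limma adjusted p = 0.783). SRF, the factor that drives many immediate early promoters, had 1.24 ± 0.45, and ZFP36L2, a protein that promotes decay of AU-rich mRNAs, 1.12 ± 0.43. ZFP36, its relative, had 0.84 ± 0.38, with double-positive replicate 3 at 3.56 and the other 4 at 4.30 to 4.58. RGS2, which shortens G protein signals, had 1.43 ± 0.66. On slide 2 the differences were -0.46 for ZFP36 and -0.28 for RGS2. Outside this list, CRTAM, an adhesion receptor listed with tissue residency genes, had 1.39 ± 0.62, but -1.09 on slide 2. The tissue residency list had 9 of 15 measured genes above 0, beside 32.6% of all genes, and a median of 0.24.

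**Figure D3:**
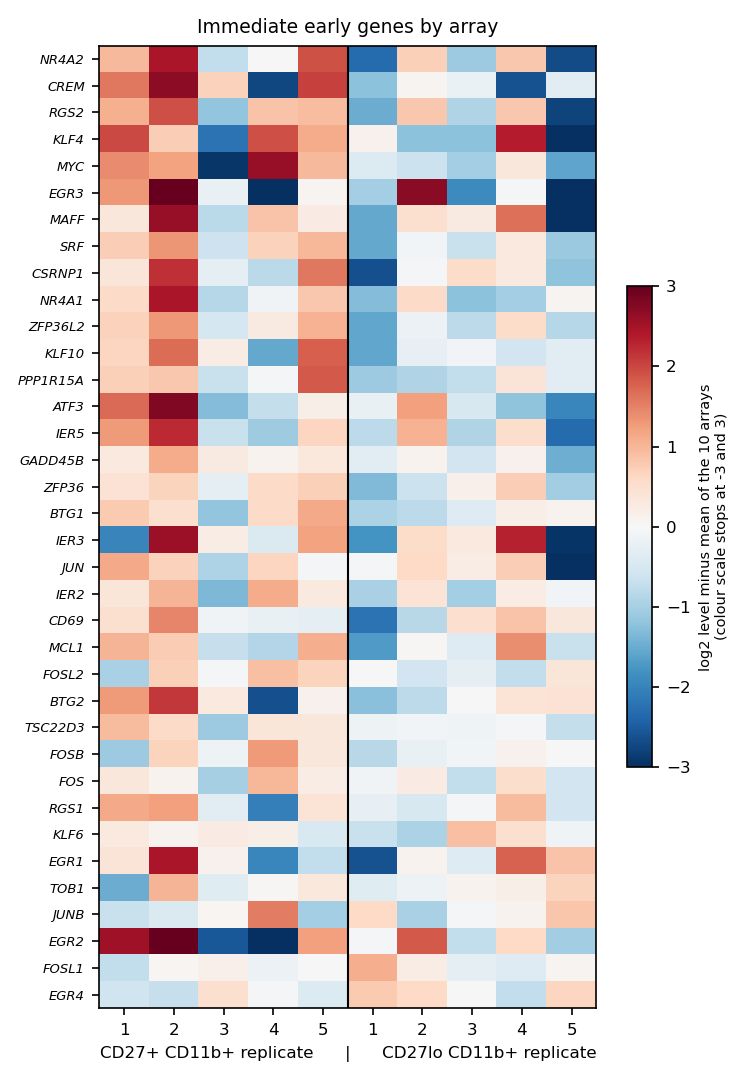
Levels of the 36 measured immediate early genes (rows, ordered by difference) on each of the 10 arrays (columns), as log2 level minus the gene's mean over the 10 arrays; red is above and blue below that mean. Double-positive replicates 1, 2 and 5 are mostly red and CD11b single-positive replicates 1 and 5 mostly blue, as is double-positive replicate 3; the mean level of the list was 0.86 on that array and 1.20 to 2.85 on the other double-positive arrays.

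By array, the mean level of the immediate early list was 1.96, 2.85, 0.86, 1.20 and 2.02 in double positives and 0.54, 1.49, 1.05, 1.77 and 0.48 in CD11b single positives. Double-positive replicates 3 and 4 lay inside the CD11b single-positive range and the other 3 above it. Stress chaperones, which handling also induces, had 12 of 17 measured genes above 0, beside 32.6% of all genes. Their median was 0.26, with slide medians of 0.99, -0.21 and -0.24. DNAJC3, a chaperone of the endoplasmic reticulum, had 1.74 ± 0.55, and HSPH1, a cytosolic heat shock protein, 1.12 ± 0.75, with CD11b single-positive replicate 5 at 0.07 and the others at 2.02 to 4.53. The part of handling in the immediate early values was not tested.

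Cytosolic ribosomal protein genes had 23 of 24 measured members above 0, beside 32.6% of all genes. Their median was 0.59 (0.43 to 0.80 under the other scalings). Of the 24, 22 were in the brightest bin, where 45.35% of all genes were above 0. Slide medians were 0.76, -0.16 and 0.59, and 9 of the 24 were above 0 on slide 2. RPS13, a small-subunit protein, read 4.495, 4.61, 4.86, 5.70 and 4.90 in double positives and 3.57, 3.48, 4.25, 4.98 and 4.43 in CD11b single positives, and RPL11, a large-subunit protein, had 0.59 ± 0.34. For RPS13, CD11b single-positive replicate 4 lay above 4 of the 5 double-positive arrays, and the others lay below all of them. The RPS13 difference was 0.77 ± 0.35 (limma adjusted p = 0.783). Oxidative phosphorylation genes had 18 of 27 above 0 and a median of 0.21, with slide medians of 0.86, -0.44 and 0.03 and -0.11 without slide 1. COX4I1, a subunit of cytochrome c oxidase, had 1.09 ± 0.46. Cell cycle genes had 14 of 25 above 0 and a median of 0.11, with slide medians of -0.01, -0.17 and 0.55. CDKN2C, the cell cycle inhibitor p18, had 2.01 ± 0.77, with 1.92, -0.89 and 3.54 on the slides.

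Lists of other cells that a spleen sort could hold varied in how many genes lay below 0, beside 67.4% of all genes. All 14 measured neutrophil genes were below 0 (median -0.50), as were all 10 platelet genes (-0.60), 14 of 16 stroma and endothelium genes (-0.65), 8 of 10 B cell genes (-0.53) and 6 of 9 T cell genes (-0.37). Plasma cell genes had 5 of 9 below 0 (median -0.08), plasmacytoid dendritic cell genes 6 of 10 (-0.33), mast cell or basophil genes 3 of 5 (-0.70) and monocyte or macrophage genes 10 of 15 (-0.34), shares under or near that of all genes. Conventional dendritic cell genes had 8 of 10 below 0 (-0.27), other innate lymphoid cell genes 9 of 12 (-0.28) and erythroid genes 7 of 8 (-0.53). The median levels of the neutrophil, platelet, stroma and B cell lists were -2.33, -2.24, -2.06 and -2.55. These lie in the signal bin next to the dimmest. In that bin 27.15% of all genes were above 0, with a median difference of -0.35. The part of signal level in these list values was not tested. For neutrophil, platelet, stroma, B cell and T cell genes without slide 1, the medians were -0.15, 0.13, -0.05, -0.17 and -0.004. Summed signals overlapped, at 4.42 to 11.0 and 6.02 to 14.5 for neutrophil genes, 6.03 to 11.1 and 7.70 to 11.2 for stroma, and 6.81 to 14.0 and 6.62 to 14.2 for T cell genes in double positives and CD11b single positives, respectively. CD3E, CD3G, CD14 and CXCR2 were not measured. DCN, a collagen-binding proteoglycan of stroma, was not well above background on any double-positive array and was so on 3 of 5 CD11b single-positive arrays. The CD11b single-positive mean stood 1.60-fold above the background level of the double-positive arrays (limma adjusted p = 0.783). That mean includes readings not well above background, so the value is not a lower bound. Against the trend of its list, BANK1, a B cell adaptor, had 1.88 ± 0.72, with -1.71, -2.08, -3.65, -0.52 and -2.31 in double positives and -4.36, -3.22, -3.83, -2.22 and -6.05 in CD11b single positives. The part of these cells in the other values was not tested.

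**Figure D4:**
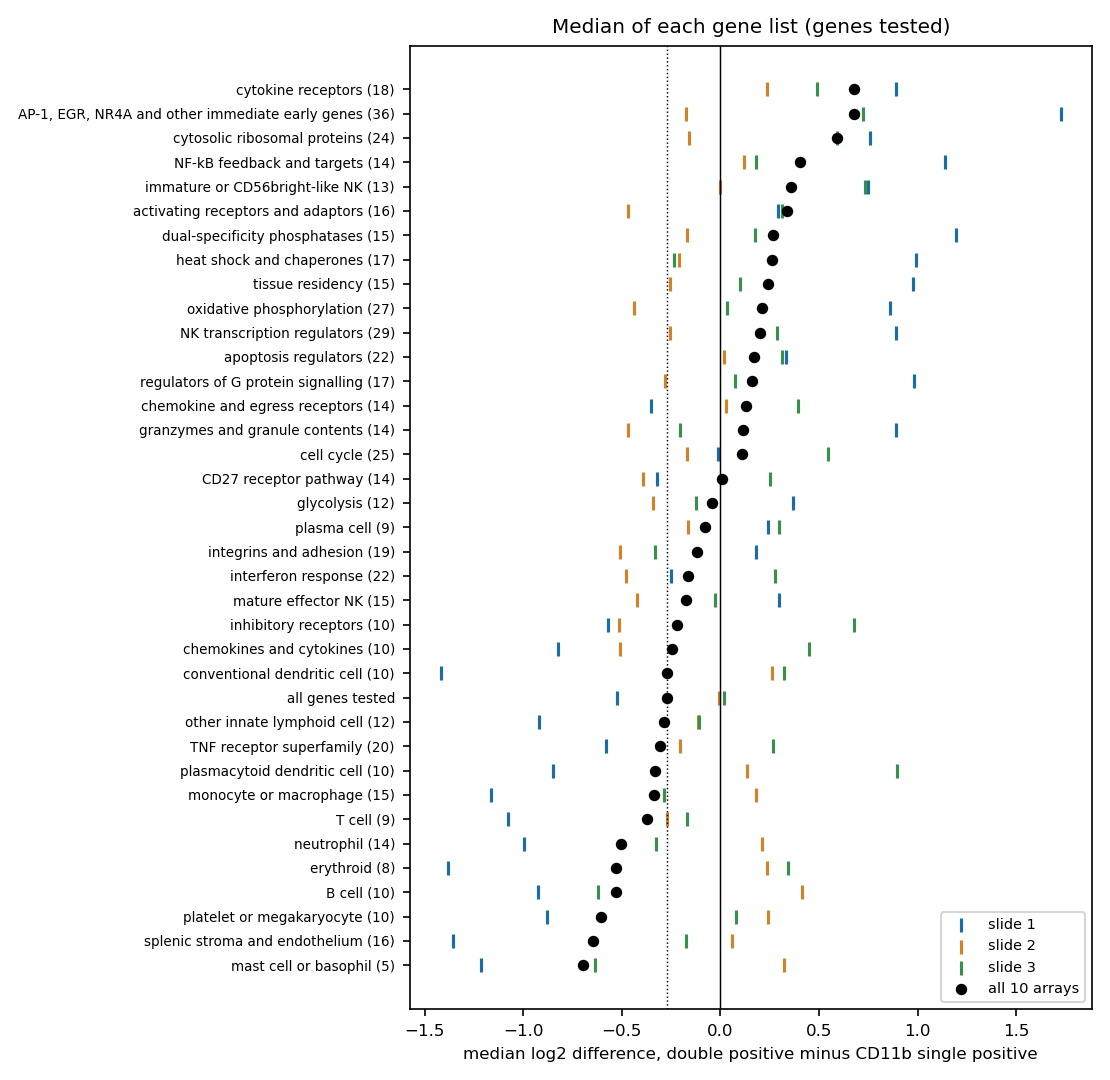
Median log2 difference, double positive minus CD11b single positive (horizontal axis), of the gene lists shown, over all 10 arrays (black) and within each slide (coloured ticks), with the number of measured genes in parentheses; the dotted line is the median of all genes, -0.27. Immediate early genes had 0.68 over all arrays and 1.73, -0.18 and 0.73 on slides 1, 2 and 3, and the stroma list -0.65, with -1.36 on slide 1.

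The 12 genes of lowest p in the direction of double positives differed by 1.31 to 2.83, with unadjusted p from 0.0007 to 0.0041, and are given as values since none passed. SRSF6, a splicing factor of the SR family, read 4.14, 3.92, 4.92, 4.44 and 4.11 in double positives and 2.32, 3.39, 3.54, 3.69 and 2.02 in CD11b single positives. The groups did not overlap, and slide differences were 1.18, 1.37 and 1.42. Its difference was 1.31 ± 0.35, and 1.03 ± 0.39 in CD11blo cells, where the arrays did not overlap either. SF3A1, a subunit of the U2 small nuclear ribonucleoprotein, read 0.93, 1.23, 0.47, 0.57 and 1.18 against -2.86, -0.53, -1.08, 0.48 and -3.48. Replicate 4 of CD11b single positives just exceeded the lowest double-positive array. The SF3A1 difference was 2.37 ± 0.65. BUD13, a protein of the spliceosome, had 1.94 ± 0.59, with 4.59 on double-positive replicate 4 and 1.08 to 1.81 on the others.

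The uncharacterised gene LOC102127559 had the lowest p and read 2.06, 2.35, 2.29, 3.62 and 1.73 against -0.12, 0.29, 0.60, 1.71 and -1.09, without overlap. Its difference was 2.13 ± 0.53, and 0.39 ± 0.59 in CD11blo cells. PLEKHF2, a protein of endosomes, was also without overlap, at 2.10 ± 0.58. WDR48, a partner of the deubiquitinase USP1, had 2.83 ± 0.86 without overlap, with CD11b single-positive replicate 5 at -7.03 and the others at -2.50 to -1.76; 1 of these 5 arrays was not well above background. VDAC3, a channel of the mitochondrial outer membrane, had 1.85 ± 0.52. COX11, an assembly factor of cytochrome c oxidase, had 1.78 ± 0.53, but -0.02 on slide 2. RERE, a nuclear corepressor with 5 probes of the same sign, had 1.58 ± 0.48, and 1.85 ± 0.53 in CD11blo cells. DSTYK, a kinase, had 1.34 ± 0.40, but only 1 of its 3 tested probes had that sign. ZNF256, a zinc finger protein, had 1.93 ± 0.54 and -0.27 on slide 2. PLAC8 completed the 12.

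The 12 genes of lowest p in the other direction differed by -2.62 to -1.15. Of these, 5 were in the dimmest bin of all genes and none in the brightest, whereas 6 of the 12 on the double-positive side were in the brightest and none in the 2 dimmest bins. SLC5A6, a multivitamin transporter, read -4.24, -4.48, -5.32, -5.84 and -3.77 in double positives and -3.78, -2.91, -2.96, -2.71 and -0.83 in CD11b single positives. Only CD11b single-positive replicate 1 and double-positive replicate 5 met. Its difference was -2.09 ± 0.55, and -0.07 ± 0.61 in CD11blo cells. MYBBP1A, a nucleolar protein that binds MYB, read -0.93, 0.27, 0.22, -0.63 and -0.97 against 1.54, 0.60, 1.29, 1.28 and 0.05. CD11b single-positive replicate 5 fell among the double positives. Its difference was -1.36 ± 0.37, and 0.15 ± 0.41 in CD11blo cells, the opposite sign.

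LINGO4, a membrane protein of the leucine-rich repeat family, read -2.54, -2.49, -1.94, -1.82 and -2.72 against -1.26, -0.08, -1.18, -1.01 and -1.37, without overlap, and its difference was -1.32 ± 0.36. The uncharacterised gene LOC102128132 (-1.80 ± 0.48), TMPRSS3, a transmembrane serine protease (-1.15 ± 0.35), and PHACTR3, an actin and phosphatase regulator (-1.61 ± 0.48), did not overlap either. However, PHACTR3 was well above background on only 1 of 5 double-positive arrays and on 4 of 5 CD11b single-positive arrays. TLX1, a homeobox factor of spleen development, and ASTN1, a neuronal adhesion protein, were not well above background on any double-positive array. They were so on 4 and all 5 CD11b single-positive arrays (limma adjusted p = 0.783 for each). The CD11b single-positive mean stood 2.89-fold and 2.95-fold above the background level of the double-positive arrays. For TLX1 that mean includes an array not well above background, so its value is not a lower bound. For both genes the arrays overlapped: CD11b single-positive replicate 5 (-5.92 for TLX1) and replicate 4 (-5.91 for ASTN1) lay inside the double-positive range. CSMD1 (-1.50 ± 0.42), PCARE (-1.80 ± 0.51), SLC26A8 (-1.54 ± 0.44) and NHLRC1 (-1.71 ± 0.50) completed this side. SLC26A8 was well above background on 3 of 5 double-positive arrays.

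**Figure D5:**
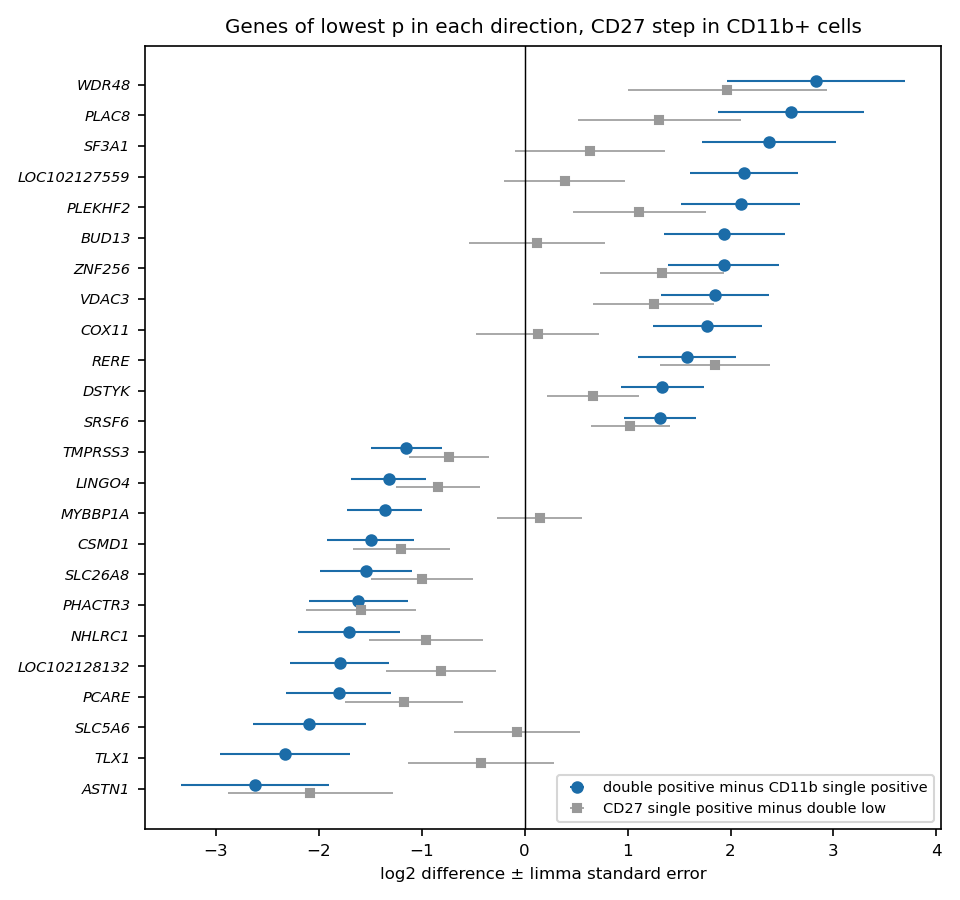
Log2 difference ± limma standard error (horizontal axis) of the 12 genes of lowest p in each direction, for double positive minus CD11b single positive (blue circles) and for CD27 single positive minus double low (grey squares, other arrays). The grey values had the same sign in 12 of 12 genes above 0 and 11 of 12 below, MYBBP1A (0.15) being the exception. The genes were chosen by the p of the blue values, from a fit whose spread also used the grey arrays. All blue values have a limma adjusted p of 0.783. For TLX1 and ASTN1, the fitted value rests on double-positive readings not well above background. PHACTR3 was well above background on 1 of 5 double-positive arrays and SLC26A8 on 3.

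The arrays of CD11blo cells gave no part of the differences of these genes. They did share in the fit's estimate of spread and in the filter on dim probes. Signs in CD11blo cells are thus not an independent check of the choice by p. In CD11blo cells 12 of the 12 genes above 0 had the same sign (0.12 to 1.97) and 11 of the 12 below (-2.08 to 0.15), beside 76.8% of all genes. None passed there either (0% of 12192; smallest limma adjusted p = 0.249; 1566 genes, 12.8%, at an unadjusted p under 0.05, 5.27% higher and 7.57% lower). Of the 16 genes without overlap above 0, 8 were in the brightest bin and none in the 2 dimmest. Intensity at the 75th percentile was 1335, 1314, 1439 and 818 units on CD27 single-positive replicates 1 to 4. On double-low replicates 1 to 4 it was 818, 1061, 1396 and 200. The part of array brightness in the overlap counts of CD11blo cells was not tested. Of the 16 genes, 5 also had no overlap in CD11blo cells (31.2%), against 3.74% of all genes over all bins. Chosen after their values were seen, they are FURIN, a proprotein convertase, ACP6, a phosphatase, SRSF6, POLR2M, a polymerase II subunit, and PNISR, a protein of splicing speckles. FURIN read 1.999, 1.58, 2.15, 1.94 and 2.64 in double positives and 0.82, 0.38, 1.14, 0.66 and 0.20 in CD11b single positives. Its lowest double-positive array stood above the highest CD11b single-positive array, and the difference was 1.42 ± 0.48, with 1.19, 1.002 and 1.86 on the slides and 1.72 ± 0.54 in CD11blo cells. Of the 21 genes without overlap below 0, 4 had none in CD11blo cells (19.0%), against 16.9% of all genes. They are FAM124B, PHACTR3, LINGO4 and CLIP3. FAM124B was well above background on no double-positive and no CD27 single-positive array. PHACTR3 was so on 1 of 5 and 2 of 4 of them, respectively.

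Whether the CD27 step differed between CD11b+ and CD11blo cells was tested with the interaction of the same fit. No gene passed (0% of 12192; smallest limma adjusted p = 0.9997; 175 genes, 1.44%, at an unadjusted p under 0.05). Genes of lowest p in each direction are given as values. SLC44A4, SLC17A5 and LOC102137669 had differences of 1.82 ± 0.52, 3.19 ± 1.04 and 1.93 ± 0.65. CLCC1 was well above background on 2 of 5 double-positive, 1 of 5 CD11b single-positive and 0 of 4 CD27 single-positive arrays, so no value is given for it. ABHD1, an alpha/beta hydrolase, had -0.91 and 2.31, a difference of -3.22 ± 0.92. POLR2D, NUS1, PFDN4 and CDKN2D had differences of -2.67 ± 0.84, -4.22 ± 1.37, -3.98 ± 1.32 and -4.16 ± 1.42. For NUS1, PFDN4 and CDKN2D, double-positive replicate 4 was the lowest of the 5 double-positive arrays, at -4.56, -5.84 and -4.18.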

How the data were processed

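Per the file headers, the authors' arrays hold a processed signal, an intensity corrected for background within the array, and raw median intensities. The submitters' processing notes name Feature Extraction 10.7.1.1 (Agilent) and Partek. The deposited value table holds log2 values that share one set of quantiles, and was an alternative. Here, control spots and outlier flags were dropped, spots of 1 probe averaged, and probes named through RefSeq accessions (34.81% matched). Levels were log2 processed intensity minus the array's 75th percentile. Genes were kept if their probe was well above background on at least 4 of 18 NK arrays, with the brightest probe per gene. The 18 NK arrays were fitted with limma 3.58.1 in R 4.3.3 (trended, robust eBayes; no block), so p-values measure the spread between arrays; the Benjamini-Hochberg threshold was 0.05. Precision is limited by how many arrays there are.

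The members and the 38 gene lists (781 genes, 522 tested) were chosen with earlier results of these data known, so lists carry counts and medians and no test. Named genes were the markers CD27, IRF8 and PLAC8, the 12 of lowest p in each direction, the 5 of lowest p in each direction for the interaction, and up to 4 members of lowest p per list; other names are given where a count or contrast called for them. Some genes and 1 list that these rules name are not reported here. The fit was tested on simulated data. There were 30 alternatives: background correction, normalization, filters, array weights, slide or donor label as a block, arrays left out. Normexp used spot medians, since mean signals were not used here. No genome was used, so no coordinates are given.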

Additional observations from a re-analysis of the deposited data

Results flagged for a closer look

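Of 232 groups of 5 arrays examined, 17 held an array far from the other 4, where chance alone would give 11.6. Double-positive replicate 4 stood apart in 5 of them. It had 67.9% of probes well above background, against 85.7% to 91.5% on the other double-positive arrays. On it BUD13 read 4.59 (others 1.08 to 1.81), CST7, which encodes a cystatin of cytotoxic granules, 5.56 (3.21 to 3.86), PNISR 3.43 (1.39 to 1.92), and the mean level of the inhibitory receptor list was 0.77 (-0.61 to -0.36). Double-positive replicate 3 stood apart for CSMD1 at -2.05 (-3.47 to -3.08), ZFP36 at 3.56 (4.30 to 4.58) and JAK2 at 1.44 (2.69 to 3.11).

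Among CD11b single positives, replicate 5 read -7.03 for WDR48 (others -2.50 to -1.76), -4.21 for BCL2A1 (-0.39 to 0.05), -0.74 for POLR2M (0.43 to 0.90) and -1.46 for the mean of the apoptosis regulator list (-0.72 to -0.47). Replicate 1 read -2.24 for SLC26A8 (-4.03 to -3.61) and -0.52 for the mean of the integrin and adhesion list (0.01 to 0.09). LINGO4 read -0.079 on replicate 2 (-1.37 to -1.01), IL4R 3.46 on replicate 3 (3.90 to 3.95) and NHLRC1 -2.10 on replicate 4 (0.11 to 0.62).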

How the results depend on the processing

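No gene was called between double positives and CD11b single positives under any of the 30 alternatives, and none for the interaction under its 28. The number at an unadjusted p under 0.05 ran from 261 without slide 1 to 2865 with array weights among settings that tested genes (2408 without both replicate 4 arrays), and was 3320 of 56918 with every probe tested. In CD11blo cells array weights called 39 genes and the other 27 alternatives none. The CD27 transcript difference stayed above 0 throughout, but lost its exact permutation p under 0.05 with normexp (0.54), quantile normalization (0.54) and the deposited table (0.55; p = 0.111 each), without both arrays of replicate 1 (0.57), 2 (0.52), 3 (0.72) or 5 (0.71), and without slide 1 (0.32), an alternative added after seeing the data; leaving out 1 array gave 0.52 to 0.84. The cause was not tested. GZMA (-1.26; -1.947 to 0.17 with 1 array left out) turned to 0.17 without double-positive replicate 4 or the 2 dimmest arrays, and to 0.13 without both replicate 4 arrays. The immediate early median was 1.73 within slide 1 and -0.18 within slide 2, the ribosomal -0.16 within slide 2, and the stroma -0.051 without slide 1, -1.36 within slide 1 and 0.060 within slide 2. Of the 26 marker and lowest-p genes, 24 kept their sign on every slide and under every alternative counted. That count left out the fit of every probe. COX11 and ZNF256 changed sign on slide 2. The lowest-p genes were chosen on these same arrays, so their steady sign is no separate support.

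Same-numbered arrays of the subsets did not deviate together: the correlations of their deviations were 0.02, 0.27, 0.18, -0.30 and -0.21, and 2 of the 10 arrays correlated best with their own number. With the replicate number as a block, 404 genes had an unadjusted p under 0.05 and none passed, and with the inferred donor label as a block 937. Exact sign flips within pairs gave the CD27 difference of 0.68 a p of 0.125, where 0.0625 is the smallest possible.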
